A study of Homo sapiens with 6 samples.

Results

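The 9 genes described here encode the canonical Notch receptors (NOTCH1, NOTCH2, NOTCH3 and NOTCH4) and their ligands (DLL1, DLL3, DLL4, JAG1 and JAG2). They were taken by name from the RefSeq gene table of GRCh38 and are 9 of its 20037 protein-coding genes on chromosomes 1 to 22, X and Y. Each gene was examined over its body and 5 kb beyond either end, 463 kb in all. The data are peak lists of 6 CUT&RUN libraries from H1, an established human embryonic stem cell line, labelled WT and day 30. CUT&RUN uses an antibody to tether a nuclease to a chromatin protein and sequences the DNA released around it. An antibody to MYT1L, a zinc-finger transcription factor of neurons, was used for 4 libraries, and IgG, which has no chromatin target, for 2. The series describes the cells as cortical interneurons made from the stem cells, whereas the sample labels give the starting cell type. Peak lists hold no expression values, so neither description could be checked against marker genes. All libraries came from 1 cell line, and the labels do not say whether replicates were separate differentiations, so the spread between them may be partly technical.

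Notch signalling passes between touching cells. A ligand of the Delta or Jagged kind on one cell binds a Notch receptor on the next, the receptor is cleaved, and its intracellular part enters the nucleus, where it acts with RBPJ on genes such as HES1 and HES5. In the developing nervous system Notch activity keeps progenitors dividing, and cells that leave for neuronal fates express ligands and lose Notch activity themselves. MYT1L is known mainly as a repressor of non-neuronal programmes, and Notch pathway genes are among the targets reported for it.

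Promoter sequences show the DNA under or beside the peaks that lay at a gene's start. The RefSeq promoter table of GRCh38.p14 held entries for 7 of the 9 genes, all but DLL1 and DLL3. The starts of NOTCH2, JAG1 and NOTCH1 are printed because these promoters or their edges carried peaks from more than 1 MYT1L library. Each run reads 5′ to 3′ on the minus strand, and capitals mark AAGTT, the core letters of the MYT1-family motif, or its reverse complement AACTT. The 250 bases before the NOTCH2 start (chr1:120069663-120069912) hold neither form. The last 27 of the 50 promoter bases after the start (chr1:120069613-120069639) hold both, and the bases between these NOTCH2 runs are not printed. JAG1 (chr20:10674000-10674249) and NOTCH1 (chr9:136546049-136546298) hold the letters before the start.
NOTCH2 before the start: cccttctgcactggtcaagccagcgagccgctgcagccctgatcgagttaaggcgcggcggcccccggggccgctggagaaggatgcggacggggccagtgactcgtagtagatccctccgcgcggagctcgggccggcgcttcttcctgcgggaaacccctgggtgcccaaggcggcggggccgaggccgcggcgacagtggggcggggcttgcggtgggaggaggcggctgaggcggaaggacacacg
NOTCH2 after the start: gaAAGTTtcagccaAACTTcgggcggc
JAG1 before the start: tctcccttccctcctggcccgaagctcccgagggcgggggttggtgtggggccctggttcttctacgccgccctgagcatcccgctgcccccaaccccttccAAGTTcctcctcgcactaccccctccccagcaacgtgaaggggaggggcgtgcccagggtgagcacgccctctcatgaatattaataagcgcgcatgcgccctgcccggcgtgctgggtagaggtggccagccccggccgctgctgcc
NOTCH1 before the start: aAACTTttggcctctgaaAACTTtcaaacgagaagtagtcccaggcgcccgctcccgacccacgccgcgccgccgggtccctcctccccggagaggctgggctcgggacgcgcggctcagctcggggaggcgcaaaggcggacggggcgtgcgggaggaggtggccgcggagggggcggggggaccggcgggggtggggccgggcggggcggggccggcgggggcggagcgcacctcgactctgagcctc

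These stretches are rich in G and C, at 72.8% in NOTCH2, 68.4% in JAG1 and 76.0% in NOTCH1 for the 250 bases before the start, against a median of 58.0% over all promoters of the table. At NOTCH2 the letters began 26 and 38 bases after the start, and peaks of all 4 MYT1L libraries covered both. At JAG1 they began 148 bases before the start, inside the peaks of 2 libraries. At NOTCH1 they began 249 and 232 bases before the start and were covered by no peak. No peak reached any base of the printed NOTCH1 run, which lay between the peaks of replicates 3 and 4. Over the whole 300 bases of each promoter (250 before and 50 after the start), AAGTT or AACTT occurred in 5 of the 7 genes, with JAG2 and NOTCH3 beside the 3 already named. The same letters occurred in 34.0% of all 35116 promoters of the table, which has several entries for some genes. A match of 5 letters is a description of the sequence and not a binding site.

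MYT1L peaks were present at all 9 genes and IgG peaks at none. MYT1L replicate 1 had 11 peaks in the 9 windows, replicate 2 had 6, replicate 3 had 6 and replicate 4 had 20, whereas both IgG libraries had 0. The 2 groups did not overlap, and replicate 4 alone supplied 20 of the 43 peaks. The mean was 10.8 ± 6.60 peaks (SD, n = 4) against 0 in both controls (exact permutation test over the 15 ways to assign the antibodies to the libraries, two-sided, p = 0.133, the smallest p this design allows). Per 10000 peaks of its own list, a MYT1L library had 3.94, 4.87, 3.16 and 6.65 peaks at these genes in replicates 1 to 4 (exact permutation p = 0.133 again). The peaks covered 4443, 1447, 2676 and 9594 bp of the windows in the 4 MYT1L libraries and 0 bp in the controls.

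The absence of IgG peaks carried little information at this number of peaks. The IgG lists held 976 and 998 peaks in all. At their mean density over the windows of all protein-coding genes they would have placed 0.0934 and 0.156 peaks in the 9 windows. Across protein-coding genes 1.61% had a peak of IgG replicate 1 and 2.90% one of IgG replicate 2. The MYT1L libraries at their own mean densities would have placed 6.0, 2.92, 4.31 and 7.10 peaks, and all 4 exceeded that number. This difference was not tested, and the 9 windows were not matched to the others in length.

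**Figure D1:**
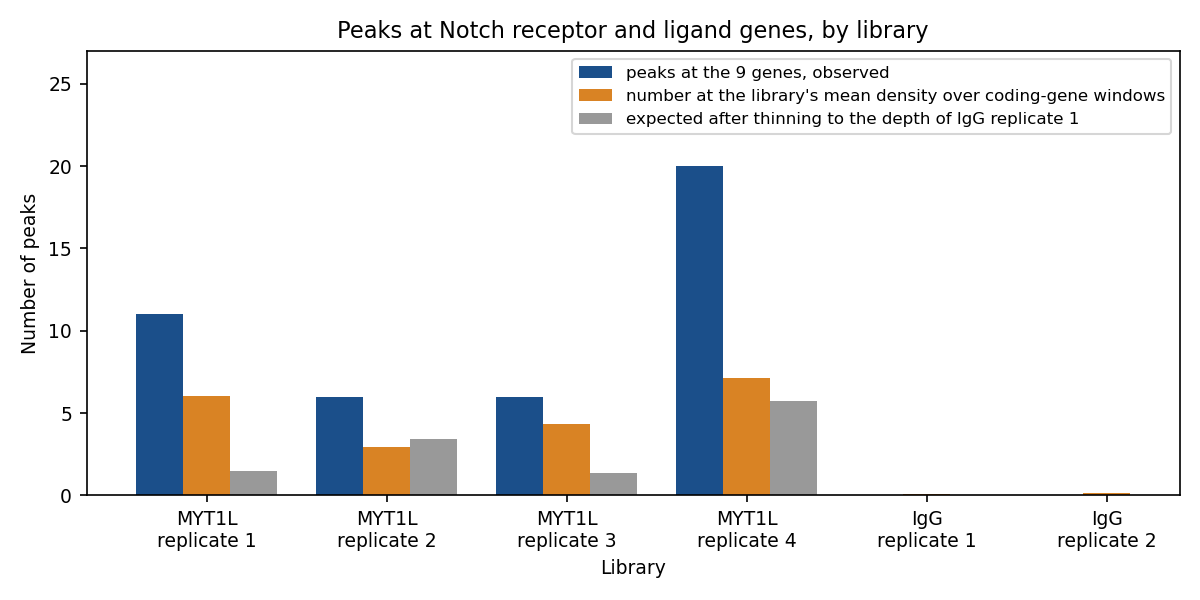
Number of peaks (vertical axis) in the windows of the 9 genes for each of the 6 libraries (horizontal axis). Blue bars are observed peaks, orange bars the number at the library's mean density over coding-gene windows, and grey bars, for the MYT1L libraries, the number expected after thinning to the depth of IgG replicate 1; MYT1L replicate 4 has the highest bar, at 20, and both IgG libraries have 0.

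Depth differed between the libraries. In fragments per kb of genome, as estimated from the peaks, the MYT1L libraries had 5.99, 2.25, 5.26 and 4.78, in order of replicate, and the IgG libraries 1.55 and 0.951. Thinned to the depth and lowest deposited −log10 p of IgG replicate 1, the 4 MYT1L libraries were expected to keep 1.49, 3.44, 1.36 and 5.71 of their peaks at these genes, where that control had 0. At IgG replicate 2 the expected numbers were 0.608, 1.91, 0.546 and 3.49. These numbers are sums over peaks that the MYT1L libraries already had and are above 0 by construction, so they are not a test against the controls. In 2 of the libraries they fell below 1 peak at the lower depth. The part of depth in the peak counts was not tested. Thinned to replicate 2, where 6 peaks were observed, replicates 1, 3 and 4 were expected to keep 4.03, 3.23 and 11.4.

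Agreement between libraries separated the genes. Peaks of the 4 MYT1L libraries joined by overlap gave 28 regions at the 9 genes, 14 at the receptors and 14 at the ligands. Of these, 21 came from 1 library, 3 from 2, 1 from 3 and 3 from all 4. Of the 21 regions seen once, 13 came from replicate 4, 5 from replicate 1, 2 from replicate 3 and 1 from replicate 2. A region with peaks in at least 3 libraries, called reproducible here, and no IgG peak was found at 4 of the 9 genes, the receptors NOTCH2 and NOTCH4 and the ligands DLL1 and DLL3. Among all protein-coding genes 48.0% met the same rule, so a share of 44.4% at the Notch genes is near the background. A region shared by at least 2 libraries was found at 6 of 9 genes, JAG1 and NOTCH1 added, against 67.3% of coding genes. A region in all 4 libraries without IgG peak was found at 3 of 9, against 25.3%. A peak in any MYT1L library was found at 9 of 9, against 84.1%.

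By library, 7 of the 9 genes had a peak in MYT1L replicate 1 (68.0% of coding genes), 4 in replicate 2 (43.0%), 6 in replicate 3 (57.3%) and 9 in replicate 4 (77.6%). DLL1 was missed by replicate 1 alone. NOTCH1 and JAG2 lacked a peak in replicate 2 only, NOTCH3 and JAG1 had peaks in replicates 1 and 4, and DLL4 had them in replicate 4 only. Gene length bears on these shares. The ligands DLL1, DLL3 and DLL4 are each under 20 kb, a class in which 34.7% of coding genes had a reproducible region, and 2 of the 3 had one. Of the 5 genes between 20 and 60 kb (NOTCH1, NOTCH3, NOTCH4, JAG1 and JAG2), NOTCH4 alone had one, against 53.0% in that class. NOTCH2, at 158 kb, had one, as did 65.1% of coding genes over 60 kb.

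**Figure D2:**
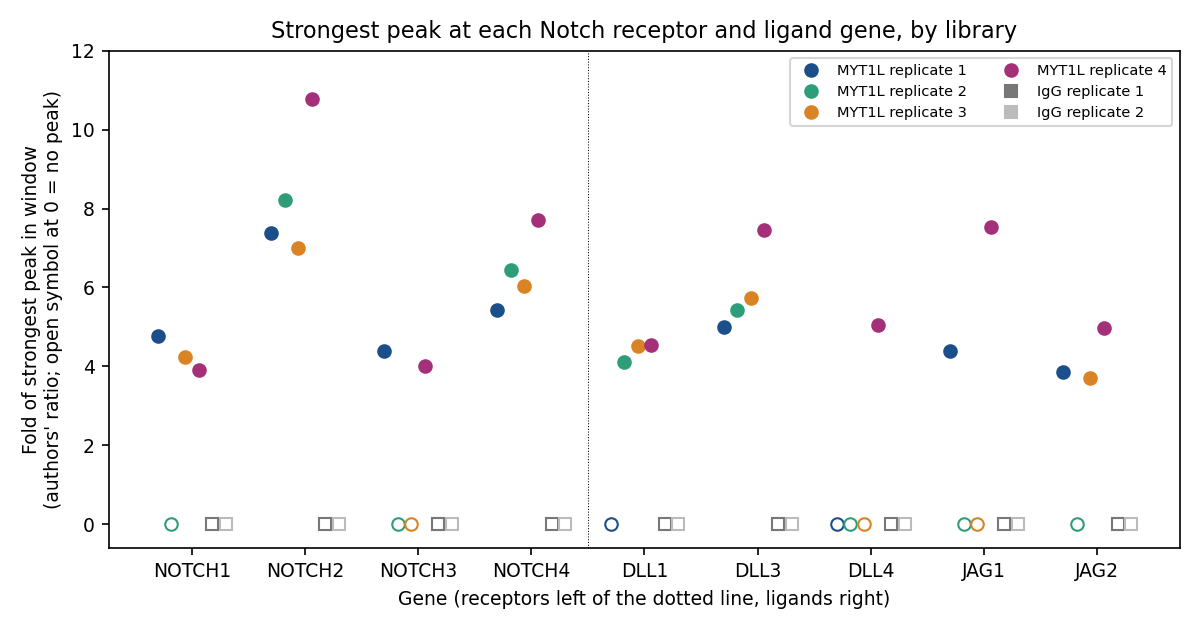
Fold of the strongest peak in the window of each gene (vertical axis, the authors' ratio over background) by library (colours), with receptors left of the dotted line. Filled circles are MYT1L libraries with a peak and open symbols at 0 mark libraries without one; the IgG squares are all open, and NOTCH2 has the highest circles, from 7.0 to 10.8.

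Among the receptors, NOTCH2 had the strongest peak, at its transcription start and shared by all 4 MYT1L libraries. NOTCH2 lies on chromosome 1 from 119911553 to 120069662 and is read towards lower coordinates. The region (120068735 to 120070044) had a fold of 7.38, 8.23, 7.0 and 10.8 in MYT1L replicates 1 to 4, a mean of 8.35 ± 1.71 (SD, n = 4). These values were above those of most peaks of the same list, higher than 91.5%, 93.0%, 86.8% and 93.3% of them in replicates 1 to 4. The summit lay 182 bp inside the gene in replicate 1, and 70, 189 and 241 bp before the start in replicates 2, 3 and 4. The pileup recovered at these summits was 19, 12, 19 and 52 fragments over a local background of 1.71, 0.580, 1.86 and 3.91. The 4 summits were spread over 423 bp, on both sides of the start. All 4 peaks overlapped the 300-base promoter, printed in part above, with 300, 207, 300 and 300 of its bases. The long noncoding gene LOC101929178 begins in the same region, which spans both starts. Peaks of 4 libraries overlapped the 300-base promoter at 18.6% of coding genes with a promoter entry.

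A second NOTCH2 region, 3900 bp inside the 3′ end (119915285 to 119915584), was shared by replicates 1 and 4 with folds of 4.97 and 4.75. The other 3 NOTCH2 regions were seen once, at folds of 3.66 to 5.38. NOTCH2 has partial copies on chromosome 1, NOTCH2NLA, NOTCH2NLB, NOTCH2NLC and NOTCH2NLR, which share near-identical sequence with its 5′ part. All 4 copies had MYT1L peaks, 2 of them in all 4 libraries, and none had an IgG peak. The highest folds at NOTCH2NLA were 10.96, 11.01, 11.19 and 17.58 in MYT1L replicates 1 to 4, above those at NOTCH2 itself in every library. How reads that match several copies were placed is not given in the sources used here, so the share of the NOTCH2 signal that belongs to NOTCH2 is uncertain.

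NOTCH4, a receptor best known from blood vessels (chromosome 6, 32194843 to 32224067), had its shared region at the 3′ end and none at its start. Folds were 5.43, 6.44, 6.05 and 7.71 in replicates 1 to 4, a mean of 6.41 ± 0.965 (SD, n = 4). Summits of the strongest peaks were within 111 bp of each other, the closest agreement among the regions with peaks in at least 3 libraries. The region (32195592 to 32196693) lay in the last 2 kb of NOTCH4, with its mean summit 974 bp inside the end. It lay nearer to another gene: the start of GPSM3, a modulator of G-protein signalling, was 294 bp from the mean summit, and the region overlapped the promoter that RefSeq gives for GPSM3. The gene bodies of NOTCH4 and GPSM3 overlap, and the peaks cannot be assigned to one of them. The nearest peak of any MYT1L library was 27324 bp from the 300-base NOTCH4 promoter. The other NOTCH4 window peak, in replicate 4 with a fold of 4.45, had its summit 62 bp from an end of the neighbouring homeobox gene PBX2 and overlapped the PBX2 promoter.

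NOTCH1, the receptor most studied in neural progenitors (chromosome 9, 136494433 to 136546048), had weaker and scattered peaks. Replicates 1 and 4 shared a region 2961 bp inside the 3′ end (136496991 to 136497559), with folds of 4.76 and 3.30. Near the start, replicate 4 had a peak with a fold of 3.92 and a summit 377 bp inside the gene, and replicate 3 had one with a fold of 4.23 and a summit 589 bp before the start. These did not overlap. The first reached 37 bp into the promoter and the second began 20 bp beyond it. Replicate 2 had no peak at NOTCH1. NOTCH3, a receptor of vascular smooth muscle and progenitors (chromosome 19, 15159038 to 15200995), had 3 regions of 1 library each. Replicate 4 placed summits 846 bp inside and 201 bp before the start, at folds of 4.01 and 3.91, and replicate 1 had a peak with a fold of 4.39, 18582 bp from the 3′ end. Its values at the start stood low in the replicate 4 list, above 10.7% and 9.16% of that library's peaks.

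**Figure D3:**
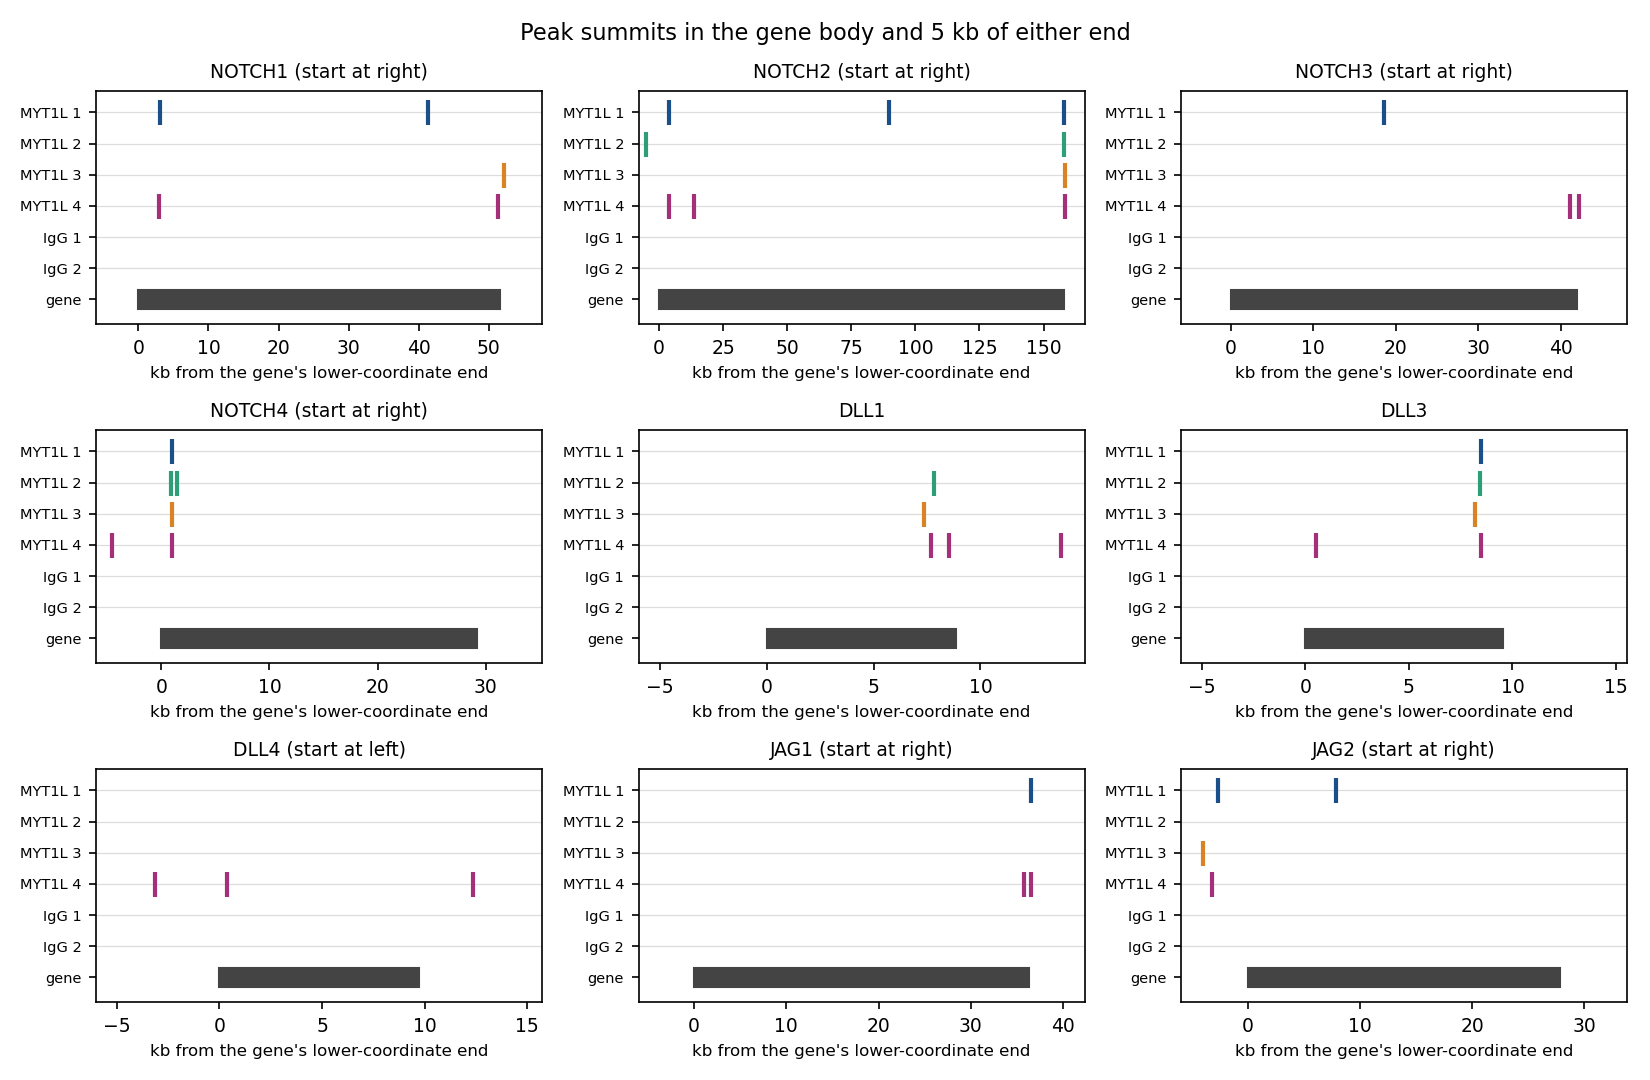
Peak summits (vertical ticks) of each library, in rows, along the 9 genes and 5 kb of either end. The horizontal axis is distance in kb from the end of the gene with the lower coordinate, and the dark bar is the gene body; ticks of all 4 MYT1L libraries line up at NOTCH2, NOTCH4 and DLL3, and the IgG rows are empty.

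Among the ligands, DLL3 had the best shared region. DLL3 is a divergent Delta ligand that is known to act on Notch within the same cell rather than to activate a neighbour (chromosome 19, 39498947 to 39508469). The region (39506971 to 39507699) had folds of 4.99, 5.42, 5.74 and 7.46 in MYT1L replicates 1 to 4, a mean of 5.90 ± 1.08 (SD, n = 4). Pileups at the summits were 19, 10, 19 and 27 fragments over backgrounds of 3.005, 1.03, 2.49 and 2.75. It lay inside the gene with its mean summit 1133 bp from the upper end and 8389 bp from the lower one, which is the start of DLL3. The nearest other coding gene, SELENOV, was 7777 bp from the mean summit. At the lower end only replicate 4 had a peak, with a fold of 5.69 and a summit 505 bp inside the gene.

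DLL1, the Delta ligand most tied to lateral inhibition between neural progenitors (chromosome 6, 170282206 to 170291078), had a reproducible region that depended on 1 library. Folds were 4.10, 4.52 and 4.25 in replicates 2, 3 and 4, a mean of 4.29 ± 0.216 (SD, n = 3), and replicate 1 had no peak in the window. The peaks of replicates 2 and 3 did not overlap each other and were joined by the wider peak of replicate 4, of 856 bp. Without replicate 4 no DLL1 region had more than 1 library, and with summits required to lie within 200 bp the best region had 2. The mean summit was 1254 bp from the upper end of DLL1, which is its start. It was 879 bp from the lower end of FAM120B, a gene whose body overlaps that of DLL1. Replicate 4 had 2 more peaks in the window, 1 of them with its summit 12 bp from the same FAM120B end. The other, beyond the DLL1 start, overlapped the body of FAM120B.

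JAG1, a Jagged ligand of progenitors and of many other tissues (chromosome 20, 10637684 to 10673999), had a region at its start in 2 libraries (10673943 to 10674556). The fold was 4.38 in replicate 1 and 7.54 in replicate 4, a mean of 5.96 ± 2.23 (SD, n = 2). The 2 summits lay 198 and 220 bp before the start, only 22 bp apart. The peaks overlapped the 300-base promoter, printed in part above, by 275 and 266 bp. Replicate 4 had a further peak 588 bp inside the gene, with a fold of 4.52. Replicates 2 and 3 had none.

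DLL4, a Delta ligand best known from sprouting blood vessels (chromosome 15, 40929340 to 40939073), had peaks in MYT1L replicate 4 only. They had folds of 3.63, 5.04 and 4.93, and the middle one had its summit 354 bp inside the gene and began 10 bp beyond the promoter. JAG2, the other Jagged ligand (chromosome 14, 105140995 to 105168776), had no peak at its start. Beyond its 3′ end, replicates 1, 3 and 4 each had a peak, with summits 2665, 4042 and 3195 bp from the gene and folds of 3.86, 3.70 and 4.98. These 3 peaks did not overlap. Replicate 1 had another JAG2 peak inside the gene, whose fold of 3.15 was the lowest of the 43.

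**Figure D4:**
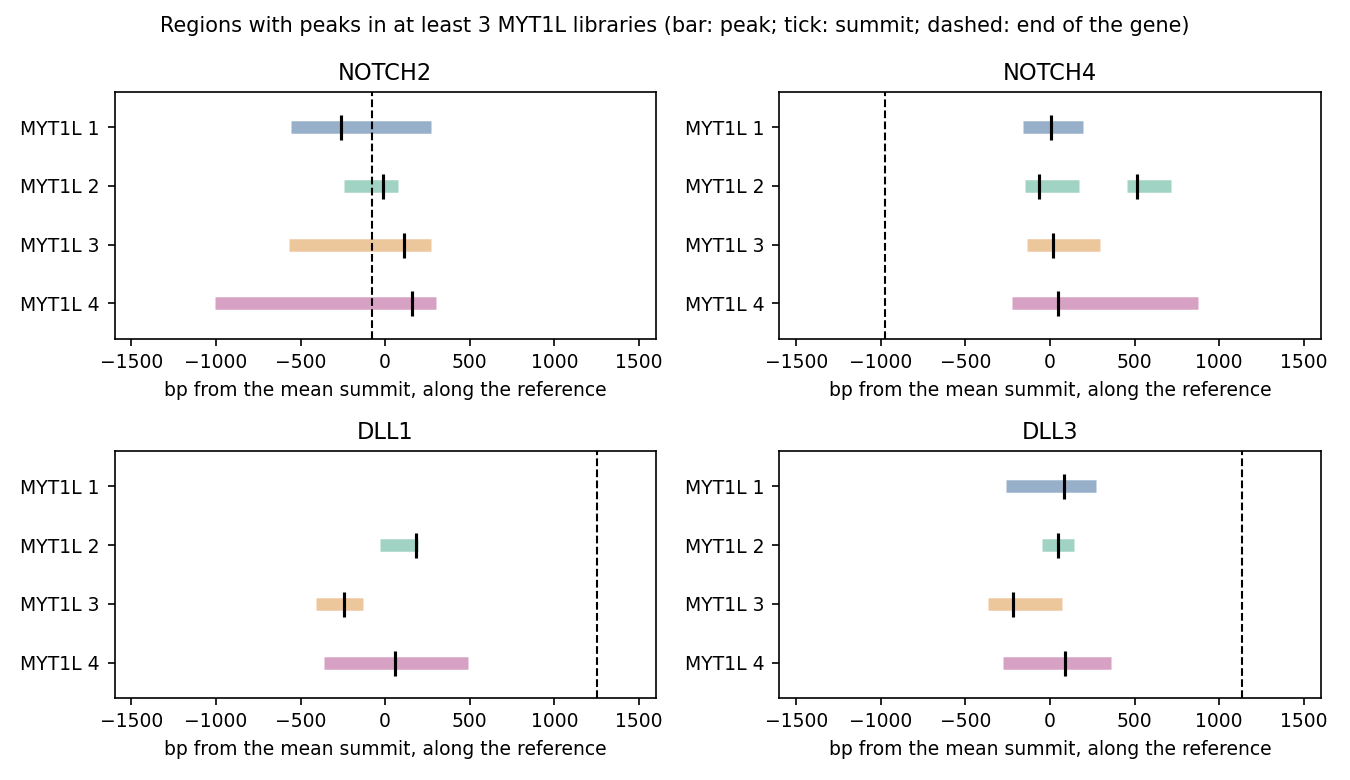
Peaks (bars) and summits (black ticks) of the 4 MYT1L libraries in the regions with peaks in at least 3 of them. The horizontal axis is the distance in bp from the mean summit along the reference and dashed lines are ends of the named gene; the NOTCH4 summits of the strongest peaks are within 111 bp, and the DLL1 peaks of replicates 2 and 3 do not touch.

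The order of the 3 regions found in all 4 libraries was the same in each: NOTCH2 had the highest fold, NOTCH4 the next and DLL3 the lowest. The neighbouring values overlapped across libraries, with NOTCH4 at 5.43 to 7.71 between NOTCH2 at 7.0 to 10.8 and DLL3 at 4.99 to 7.46. The JAG1 mean of 5.96 ± 2.23 (n = 2) was within the spread of DLL3 at 5.90 ± 1.08, and the DLL1 values in its 3 libraries lay below those of DLL3 in the same libraries. Replicate 4 gave the highest fold at NOTCH2, NOTCH4 and DLL3 and the higher of 2 at the JAG1 start. It was not the highest in the other 3 shared regions. At DLL1 it had 4.25 against 4.52 in replicate 3. In the 3′ part of NOTCH2 it had 4.75 against 4.97 in replicate 1, and at NOTCH1 3.30 against 4.76 in replicate 1. The deposited fold has 1 added to both pileup and background, which lowers it most where the background is small. Without that addition, pileup over background was highest in replicate 2 at NOTCH2 (12 over 0.580, against 52 over 3.91 in replicate 4). The same held at NOTCH4 (14 over 1.33, against 41 over 4.45). Replicate 4 remained highest at the JAG1 start, and at DLL3 by a narrow margin (27 over 2.75, against 10 over 1.03 in replicate 2). At DLL1 replicate 2 became highest (9 over 1.44, against 14 over 2.32 in replicate 3). In the 3′ part of NOTCH2 replicate 4 became the higher (8 over 0.895, against 11 over 1.41 in replicate 1). At NOTCH1 replicate 1 stayed the higher. The part of depth in this ranking of libraries was not tested. Folds over all 43 peaks ran from 3.15 to 10.8 with a median of 4.74, and they ran from 3.30 to 10.8 at the receptors (median 4.75, 23 peaks) and from 3.15 to 7.54 at the ligands (median 4.54, 20 peaks). The medians within a library were 4.39, 5.40, 5.13 and 4.65, each below the median of the whole list (4.92, 5.56, 5.17 and 5.55 in replicates 1 to 4).

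Shared peaks overlapped the promoter at few of the 7 genes that have a promoter entry. Among the 7 genes with a promoter entry, a peak of at least 1 MYT1L library overlapped the 300-base promoter in 4 (NOTCH1, NOTCH2, NOTCH3 and JAG1), against 66.4% of coding genes with an entry (any of their starts). Peaks of at least 2 libraries did so in 2 (NOTCH2 and JAG1), against 53.1%, and of at least 3 in 1 (NOTCH2), against 38.1%. Peaks of all 4 did so in 1 of the 7 (NOTCH2, 14.3%), near the 18.6% of coding genes. The regions of NOTCH4 and DLL3, found in all 4 libraries, lay near the 3′ end of each gene, and the shared NOTCH1 region lay in its 3′ part. The reproducible region of DLL1, a gene without a promoter entry, lay nearer its start, with the mean summit 1254 bp from it. No test was made of these shares, since the genes were chosen with results known.

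The other genes of the pathway were read by the same rule from a list of 48. A reproducible region without IgG peak was found at 29 of them (60.4%, against 48.0% of coding genes). By role these were 6 of 8 genes of receptor cleavage, 6 of 7 nuclear partners, 8 of 12 genes of endocytosis and ubiquitin ligation, 3 of 6 glycosylation genes, 5 of 11 effectors and targets and 1 of 4 other ligands. A region in all 4 libraries without IgG peak was found at 16 of the 48, against 25.3% of coding genes. None of these pathway counts was matched for gene length. The highest mean folds were those of DTX2, a ubiquitin ligase of the Deltex family (9.31 ± 2.75), MAML3, a coactivator of the Notch complex (8.61 ± 2.30), ADAM10, the protease that makes the first ligand-dependent cut (8.25 ± 1.21), and POGLUT1, which adds glucose to the receptor (8.24 ± 4.12; SD, n = 4 each). They were followed by HEY2, NUMB, PSEN2, EOGT, ADAM17, MIB1 and POFUT1, with means between 7.04 and 6.29. NOTCH2, at 8.35, fell among the first 4, NOTCH4, at 6.41, stood between MIB1 and POFUT1, and DLL3, at 5.90, below all of those named. The pathway genes whose highest folds over the 6 libraries were most like the mean of the 9 were NRARP, HES7 and MIB2, with mean absolute log2 differences of 0.33, 0.34 and 0.34. NRARP, a feedback inhibitor of Notch, had folds of 3.93, 4.38 and 5.61 in replicates 1, 3 and 4 and no peak in replicate 2 or in the controls.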

How the data were processed

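Peaks were called with MACS2 on hg38, per the submitters' processing notes, and the aligner, options and control library are not given in the sources used here. Each library has 1 deposited list. The deposited fold is a ratio of pileup to background with 1 added to each. The deposited −log10 p and −log10 q are those at the summit, and the deposited score is 10 times −log10 q. Summit positions are offsets deposited with the peaks. Sample titles gave groups and replicate numbers, although peak names in the MYT1L lists carry numbers 1 higher.

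Peaks on chromosomes 1 to 22, X and Y were used, 12310 to 30086 per MYT1L library and 976 and 998 in the IgG libraries. A peak counted for a gene when at least 1 bp lay in the RefSeq GRCh38.p14 gene body or 5 kb of either end. Depth was estimated by solving MACS's formulas for fold and p for a whole-number pileup, which met the deposited −log10 p within 0.0002 for 99.97% to 100% of peaks. Thinning took a binomial share of each pileup. These are estimates, and total read numbers are unknown. Scripts were tested on simulated data (Python 3.11.15, SciPy 1.17.1, pandas 2.3.3). Group differences were tested by exact permutation, two-sided. All 9 genes were named whatever their values, with the strongest and most similar genes of the pathway list and nearer neighbours; 1 gene that the rule names is not reported here. The members and lists were chosen with earlier results of these data known. Peak sequences were not used here, and coordinates count from 1.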

Additional observations from a re-analysis of the deposited data

Results flagged for a closer look

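Of 16 sets of 4 MYT1L values tested for a library far from the others, 2 stood out. The test divides the gap to the nearest value by the range. Both sets are small counts with 3 equal values, for which this ratio is 1 whatever the remaining count. It flags any such set, so no rate expected by chance is given. DLL4 had 3 peaks in replicate 4 and 0 in each of the other 3 MYT1L libraries. DLL3 had 2 peaks in replicate 4 and 1 in each of the others. In both cases the library was replicate 4, which supplied the most peaks at these genes.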

How the results depend on the processing

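MYT1L libraries had more peaks, covered bases, peaks per 10000 and genes with a peak than IgG libraries under every alternative run; the permutation test cannot pass 0.05 in this design, so this says nothing about stability. Leaving out 1 library each time gave mean differences of 7.67 to 12.3 peaks, 2855 to 5571 bp, 3.99 to 5.15 peaks per 10000 and 5.67 to 7.33 genes. Pairing the libraries numbered 1 and 2 as a replicate block gave differences of 8.5 peaks, 2945 bp, 4.41 per 10000 and 5.5 genes (exact sign-flip p = 0.5, the smallest possible); the labels do not say that the numbers pair. The 4 genes with a reproducible, IgG-free region became 3 to 6 without 1 library (2 of 3 MYT1L libraries then sufficing): 6 without replicate 2 or replicate 3, with NOTCH1 and JAG1 added, and 3 without replicate 4. NOTCH2, NOTCH4 and DLL3 remained in all 15 alternatives and DLL1 was lost in 5. With summits required to lie within 200 bp, the best NOTCH4 region kept 4 libraries, whereas those of NOTCH2 and DLL3 had 3. DLL3 also had 3 among peaks with −log10 q from 5 upwards. Genes with a region in at least 2 libraries, 6, fell to 3 among peaks with −log10 q from 5 upwards, with equal numbers of top peaks (12310) and without replicate 4 (range 3 to 6). The 28 regions became 18 in gene bodies alone, 15 at that −log10 q, 10 with equal top peaks, and 17 to 28 without 1 library, lowest without replicate 4; fewer peaks or a shorter window account for these by construction. The pathway count of 29 was 17 at that −log10 q, 16 with all 4 libraries, and 29 to 37 without 1 library. Peaks expected per MYT1L library, 3.0 at the depth of IgG replicate 1, were 1.64 at IgG replicate 2. At MYT1L replicate 2, a depth chosen after seeing the data, they were 6.21, a mean over replicates 1, 3 and 4 only.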
